A study of Mus musculus with 20 samples.

Results

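Lungs of mice labelled as lacking vasoactive intestinal peptide (VIP) were compared with wild-type lungs in room air, to see which gene families and pathways differed besides the largest single changes. The comparison uses 10 of the 20 libraries of a whole-lung RNA sequencing series, chosen by their titles. The wild-type mice were C57BL/6, and no strain is stated for the knockouts. The VIPKO normoxia group held 4 libraries and the WT normoxia group held 6, and every sample was labelled with the same batch. Both groups breathed 21% oxygen for 4 weeks. The other 10 libraries, 5 VIPKO and 5 WT, came from mice kept for 4 weeks at 10% oxygen (hypoxia), and they entered the fits only as further groups. Sample titles and the design text name the mice knockouts of the Vip gene, whereas the genotype field says knockdown; age, sex and the making of the allele were left unstated in those sources. Nothing states that each library came from its own animal, so the p-values measure no more than the spread between libraries. Below, VIPKO 1 to 4 are the VIPKO normoxia libraries, whose values are given in that order, and WT values are given as the lowest, the median and the highest of the 6 WT normoxia libraries.

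VIP is a neuropeptide of airway and vascular nerves. Its receptors, coded by Vipr1 and Vipr2, raise cyclic AMP through adenylyl cyclase, and cyclic AMP relaxes smooth muscle and switches on genes through the transcription factor CREB. In the lung circulation, bone morphogenetic protein (BMP) signals pass through the endothelial receptors coded by Acvrl1 and Bmpr2, with endoglin (Eng) as a helper, to SMAD proteins, and loss of this pathway is a known inherited cause of pulmonary arterial hypertension. Mitochondrial ribosomal RNA (mt-Rnr1 and mt-Rnr2) belongs to the ribosome that translates the mitochondrial genome and is normally abundant in total RNA.

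The targeted gene did not check the labels. Vip signal was 5.32, 5.54, 4.27 and 1.16 in VIPKO 1 to 4, against 0, 3.64 and 93 in WT libraries, and the highest value was that of WT 5. The groups overlapped, and the difference of the means was -15.0 (2-sided exact permutation p = 0.695, 210 splits). The limit that a count of 0 allows, 3 reads, was a signal of 2.66 to 3.49 in VIPKO libraries and 1.03 to 5.03 in WT libraries, so most of these values stand for a few reads. Without WT 5 the difference was -0.265. Every genotype named below is therefore the label. The lung label did match its markers: the type 2 cell gene Sftpc had 122232, 149556, 126974 and 172713 in VIPKO libraries and 56999, 127858 and 168667 in WT libraries, and the type 1 cell gene Ager had 19857, 20067, 18155 and 26988 in VIPKO libraries and 13218, 20504 and 27259.9 in WT libraries.

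Some libraries stood apart from the rest. Estimated depth was 17.1 to 21.1 M reads in VIPKO libraries and 12.04 to 56.7 M in WT libraries. On the first principal component of the 10 libraries, which held 34.6% of the variance, VIPKO 2, 3 and 4 lay at 80.8, 68.1 and 61.4, and VIPKO 1 lay at -22.3 among the WT libraries, which ran from -42.4 to -20.2. VIPKO 2, 3 and 4 shared a pattern with 1 library of another group, VIPKO hypoxia 2. In all 4 of these, 280 genes were lower and 228 higher than in any of the other 16 libraries of the series. Processed pseudogenes, which are copies of spliced transcripts, made up 39.3% of the lower and 21.9% of the higher genes, against 7.52% of all genes tested. The ribosomal protein pseudogene Rps2-ps6 had 152, 2.03, 1.03e-13 and 3.77 in VIPKO 1 to 4 and 0.325 in VIPKO hypoxia 2, and the other libraries lay between 74.1 and 378. VIPKO 1 did not share this pattern, and the origin of the pattern was not tested. A further fit held a shared term for these 4 libraries, and its values are given below for most gene lists. The term is estimated in both VIPKO groups, from VIPKO 2, 3 and 4 against VIPKO 1 and from VIPKO hypoxia 2 against its group. In that fit VIPKO 1 weighs most in the normoxia contrast, but the other VIPKO libraries enter too. Its values are therefore not those of VIPKO 1 alone.

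Mitochondrial rRNA separated the genotypes in room air. The summed mt-Rnr1 and mt-Rnr2 signal was 15358, 12034, 27208 and 20937 in VIPKO libraries, against 97.7, 728 and 2075 in WT libraries. All 4 VIPKO values, that of VIPKO 1 among them, lay above every WT value, and the difference was 4.86 on the log2 scale (2-sided exact permutation p = 0.00476, the smallest that 210 splits can give). Mitochondrial rRNA was a small part of the signal, at 0.0626% to 0.149% in VIPKO libraries and 0.000526% to 0.0106% in WT libraries. In the hypoxia libraries it ran from 4506 to 9415 in VIPKO and from 396 to 7058 in WT, and the groups overlapped. In room air mitochondrial rRNA moves with the genotype. So the parts of a change that go with each can be told apart only as far as libraries of one group differ in it.

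**Figure D1:**
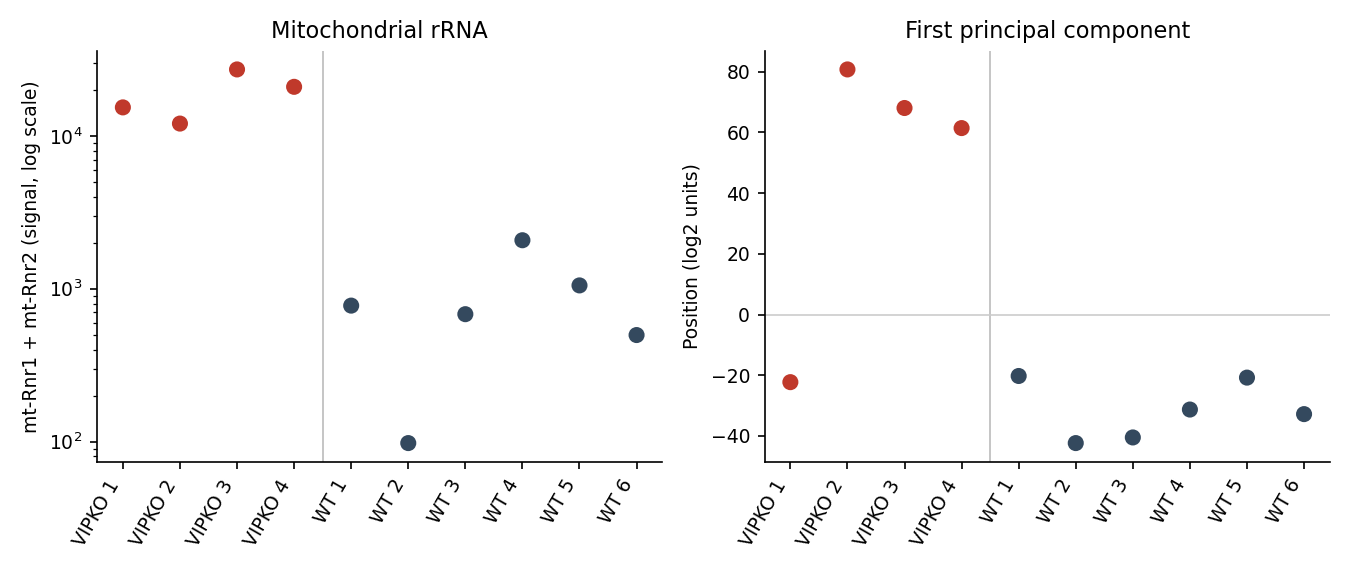
Mitochondrial rRNA (left, summed signal of mt-Rnr1 and mt-Rnr2, log axis) and position on the first principal component of the log2 values (right) in each of the 4 VIPKO and 6 WT normoxia libraries. All 4 VIPKO libraries lie at or above 12034 for mitochondrial rRNA and no WT library exceeds 2075, while on the component VIPKO 1 lies among the WT libraries.

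Across 21658 genes, limma called 1873, or 8.65%, between VIPKO and WT normoxia lungs. Of these, 1015 (4.69%) were higher in VIPKO lungs and 858 (3.96%) were lower, and the median log2 fold change of all genes was 0.01. In what follows "rose" and "fell" refer to these calls, at an adjusted p under 0.05 from limma with Benjamini-Hochberg adjustment, and a fold change is on the log2(signal + 1) scale, which understates changes of low genes. The groups did not overlap for 2138 genes (9.87%), with VIPKO higher for 4.75% and lower for 5.13% of all genes. Genes of largest change were named only where the groups did not overlap, so for them the lack of overlap adds no support. Among them are Snord15b, mt-Atp8, Cyp2a5, Rpl38, Atp5k, Smad6, Sox18, Nod2, Ptgdr2, Sco2 and Ier2. The calls leaned on the libraries that stood apart: leaving out VIPKO 2, 3 or 4 left 359, 889 and 443 called genes, and leaving out WT 3, 4 or 6 left 1127, 1239 and 1189. With a term for the 4 libraries no gene was called by limma (2247 at an unadjusted p under 0.05, lowest adjusted p = 0.253), and 908 of the 1015 rises and 781 of the 858 falls kept at least 0.5 of their size. Of the 88 called genes named here 84 did, the others being Rgma, Plvap, Hoxb6 and Rps2-ps8. VIPKO 1 alone lay outside the WT range, on the same side, for 66.4% of the rises and 75.8% of the falls. Its own values entered these calls. These shares, and the VIPKO 1 counts given below for single lists, are therefore not independent of the calls. Transcripts of the genes that rose had a median length of 847 bases and 45.7% GC, those of the genes that fell had 1975 bases and 56.2% GC, and all tested genes had 1449 bases and 49.7% GC. With the trend on length and GC content taken out, 375 rises (1.79% of the 20982 genes with a length) and 164 falls (0.782%) were called, and whether that trend belongs to the tissue or to the libraries was not tested.

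To set apart the changes tied to mitochondrial rRNA, its log2 level entered the fit as a covariate. The 4 groups accounted for much of its variance (R squared = 0.759), and standard errors grew by a median of 1.89 times and limma called no gene (2101 at an unadjusted p under 0.05, 4.09% of all genes higher and 5.61% lower, lowest adjusted p = 0.412). The size of the changes therefore serves here as a description. At equal mitochondrial rRNA 718 of 1015 rises (70.7%) and 748 of 858 falls (87.2%) retained 0.5 or more of their size. With 1 library left out, 635 to 815 rises and 664 to 794 falls did. The sign changed for 60 rises and 4 falls. In the 10 hypoxia libraries, whose group means do not enter the normoxia contrast, the slope on mitochondrial rRNA within genotype had the sign of the normoxia change for 73.9% of the rises and 65.7% of the falls, beside 52.7% positive slopes over all genes, but only 2 genes (0.00923%) had a slope that limma called (1160 at an unadjusted p under 0.05). The slopes leaned on WT hypoxia 4 and 5, which had the lowest and the highest mitochondrial rRNA of the WT hypoxia group, 396 and 7058, against 702 to 1563 in the other 3. WT hypoxia 5 also stood apart in markers of other tissues. The summed signal of 15 skeletal muscle genes was 42515 there and 747 to 1996 in the other 9 hypoxia libraries. That of 18 fat cell genes was 52795 there and 7874 to 20180 in the others. Their part in the slopes and in the values at equal mitochondrial rRNA was not tested. Without WT hypoxia 5, the slope had the sign of the normoxia change for 85.1% of the rises and 86.2% of the falls, beside 49.4% positive slopes over all genes, and 1 slope was called. Without WT hypoxia 4 these shares were 56.6% and 49.9%, beside 48.2%, and 6 slopes were called.

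Gene families lay on both sides of this split. Of the vascular falls 27 of 28 and of the airway rises 30 of 32 retained 0.5 or more of their size (25 and 28 without WT hypoxia 5), against 1 of 5 rises of sterol genes (2 without it) and 3 of 6 falls of immediate early genes (4 without it). For the nuclear genes of the respiratory chain the count rested on that library. Summed over their lists, 4 of 25 rises retained 0.5 or more with it and 12 of 25 without it. Ndufa4 is counted there both in complex I and in complexes III and IV. Of the 88 called genes named here 15 changed sides without WT hypoxia 5: Ndufa5, Atp5k, Btg2 and Idi1 then retained 0.5 or more, and Rgma, Tbx2, Bpifa1, Mrc1, S100g, Rps29, Gsto1, Txn1, Foxf2, Hoxb6 and Zfp771 no longer did.

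**Figure D2:**
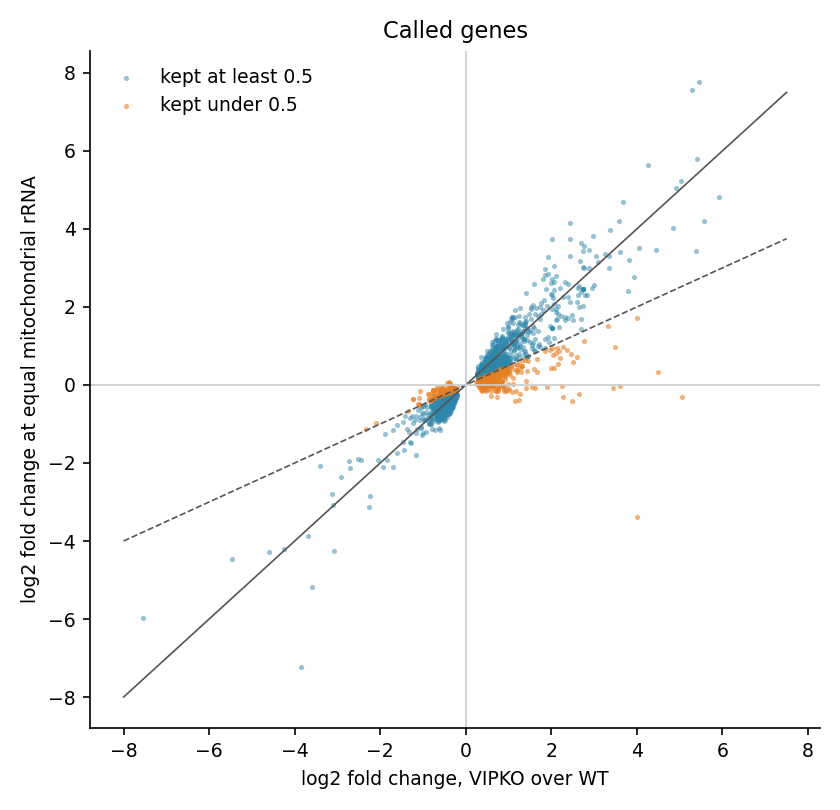
Log2 fold change at equal mitochondrial rRNA (vertical) against that without the covariate (horizontal) for the 1873 called genes, where 1466 kept at least 0.5 of their size and 407 kept less. Points on the solid line kept their full size and points on the dashed line kept 0.5 of it, and the genes that kept less lie mostly to the right of 0, among the rises.

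**Figure D3:**
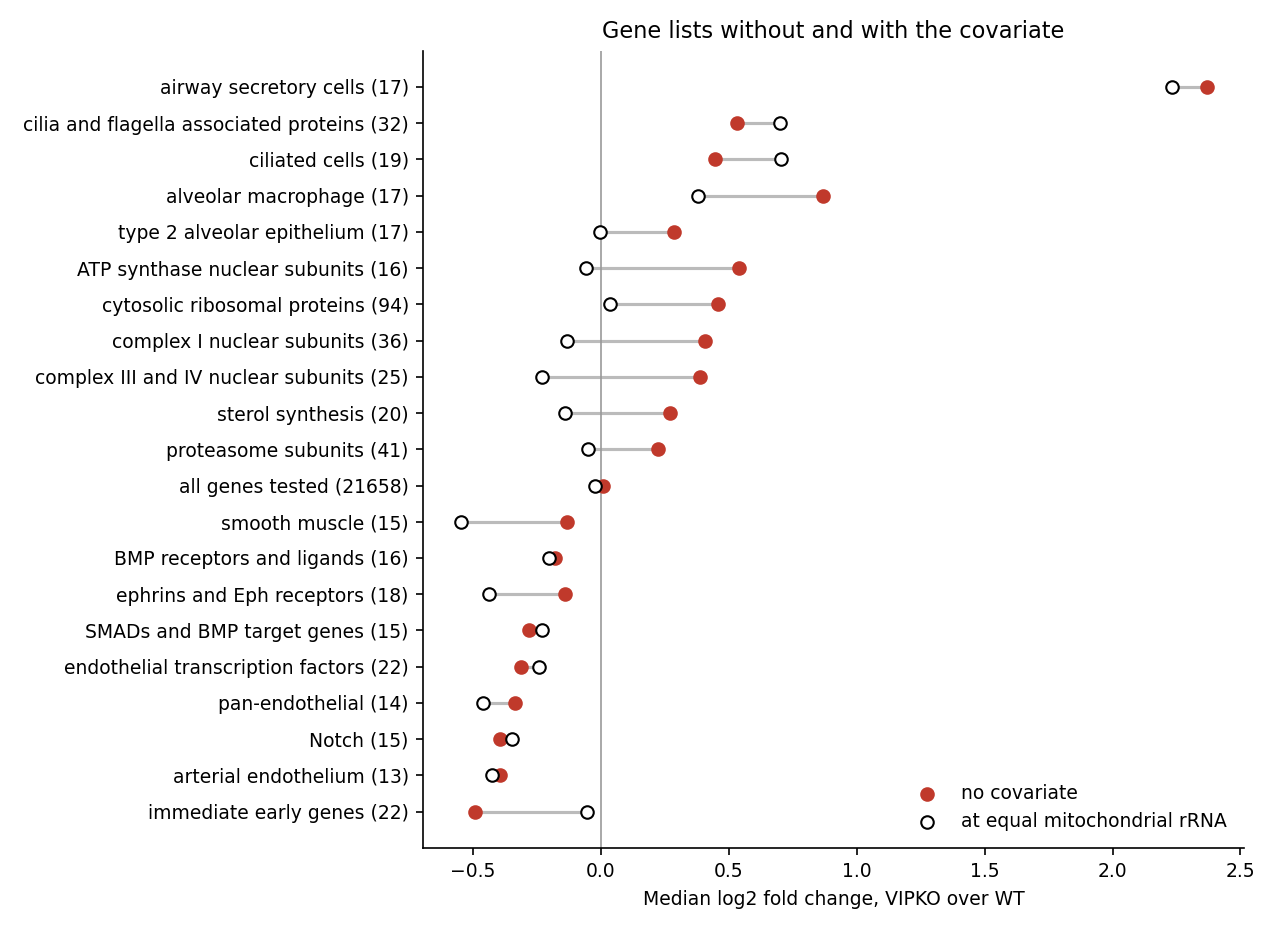
Median log2 fold change, VIPKO over WT, of the tested members of each list (number in parentheses), without the covariate (filled) and at equal mitochondrial rRNA (open). The airway medians lie above 0 and the vascular medians below 0 in both, while at equal mitochondrial rRNA the ATP synthase median is -0.06 (0.27 without WT hypoxia 5), against 0.54 without the covariate, and the immediate early median is -0.05 (0.03), against -0.49.

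Part of the BMP pathway and of the endothelial markers fell in VIPKO lungs. Over 11 lists of endothelial markers and vascular signals, 28 of 145 tested genes fell and none rose, beside 3.96% of all genes that fell. Their median log2 fold change was -0.25, against 0.01 over all genes, and 27 of the 28 kept at least 0.5 of their fall at equal mitochondrial rRNA, where the median was -0.33. With the term for the 4 libraries the median was -0.17 and 25 of the 28 kept that share, and VIPKO 1 lay below every WT library for 22 of them. Leaving out VIPKO 2, 3 or 4 left 10, 16 and 13 of the calls, and with length and GC content taken out 7 remained at a median of -0.12. The summed signal of the lists was 528474, 465224, 468499 and 520068 in VIPKO libraries, against 576007, 611472 and 631538 in WT libraries, with no overlap. The lists were chosen with earlier results of these data known. The lymphatic list is not among the 11, and 1 of its 8 tested genes rose and none fell. In whole lung, fewer endothelial cells and less RNA per cell cannot be told apart.

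Among the ligands and receptors of the pathway, 4 of 16 fell, beside 3.96% of all genes that fell. The change was positive for 5 of the 16, and at an unadjusted p under 0.05 by limma 2 were higher and 5 lower. Bmp6, a BMP ligand made by lung endothelium (chromosome 13, 38345107 to 38500302, GRCm38), had 2878, 2323, 2820.4 and 2388 in VIPKO libraries, against 3168, 4126 and 4935 in WT libraries, a fall of 0.63 ± 0.13 (adjusted p = 0.0072). Endoglin, the co-receptor coded by Eng (chromosome 2, 32646595 to 32682669), had 7104, 6444, 7741 and 7202 in VIPKO libraries, against 10121, 10885 and 11347 in WT libraries, and fell by 0.60 ± 0.13 (adjusted p = 0.0115). For both genes every VIPKO library lay below every WT library. The type I receptor Acvrl1 (chromosome 15, 101128522 to 101145336) had 10442, 8765, 8699.9 and 8966 in VIPKO libraries and 9849, 12855 and 13539.8 in WT libraries and fell by 0.43 ± 0.10 (adjusted p = 0.0183); VIPKO 1 lay within the WT range. The co-receptor gene Rgma fell by 0.38 ± 0.11 (adjusted p = 0.0371), and its change was 0.02 once length and GC content were taken out. Of 15 SMADs and BMP targets, 3 fell, and these 3 are known to be switched on by BMP signals. The change was positive for 4 of the 15, and at an unadjusted p under 0.05 by limma 2 were higher and 6 lower. Smad6, an inhibitory SMAD, had 2511, 2223, 2357 and 2396 in VIPKO libraries, against 4209, 4698 and 5230.4 in WT libraries, and fell by 0.996 ± 0.15 (adjusted p = 0.00194). The second inhibitory SMAD, Smad7, had 3254, 2867, 2542 and 2981 in VIPKO libraries against 4138, 4647 and 5305 in WT libraries and fell by 0.67 ± 0.14 (adjusted p = 0.00763). Atoh8, a transcription factor downstream of BMP in endothelium (chromosome 6, 72206177 to 72235577), had 250.0, 243, 254 and 259.6 in VIPKO libraries and 335, 438 and 449 in WT libraries and fell by 0.71 ± 0.10 (adjusted p = 0.00194). The VIPKO libraries of all 3 lay below the WT range. At equal mitochondrial rRNA the changes were -1.24 ± 0.27 for Smad6, -0.78 ± 0.26 for Smad7 and -0.66 ± 0.20 for Atoh8, and with the term for the 4 libraries they were -0.997 ± 0.21, -0.58 ± 0.19 and -0.64 ± 0.15. None of 11 BMP antagonists was called (2 had an unadjusted p under 0.05), and of 16 TGF-beta and activin genes 2 fell, the signal transducer Smad3 (-0.44 ± 0.09, adjusted p = 0.00767) and Ltbp3, which binds latent TGF-beta (-0.42 ± 0.10, adjusted p = 0.0186), and 1 of the 2 was left without VIPKO 2, 3 or 4. Bmp6, Smad6, Smad7 and Atoh8 stayed called without any 1 library. Eng missed the threshold without VIPKO 2 (adjusted p = 0.0583), Acvrl1 without VIPKO 2, 3 or 4 (up to 0.0759) and Rgma without any of 7 normoxia libraries (VIPKO 2, 3 and 4 and WT 1 to 4, up to 0.150).

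Some cell-contact signals of developing and mature vessels fell too. Of 18 ephrins and Eph receptors 5 fell and none rose, with a median of -0.14, or -0.44 at equal mitochondrial rRNA. Over all genes 3.96% fell. The receptor gene Ephb3 (chromosome 16, 21204755 to 21223305) had 1030.2, 913, 928 and 956 in VIPKO libraries, against 1256, 1463 and 1679 in WT libraries, a fall of 0.60 ± 0.09 (adjusted p = 0.00198). Its ligands also fell. Efnb2, the ephrin that marks arteries, had 4343, 3526, 4409 and 3754 in VIPKO libraries, against 5560.5, 6354 and 6869.8 in WT libraries, and fell by 0.66 ± 0.14 (adjusted p = 0.00822). Efnb1 had 1763, 1602, 1803 and 1815 in VIPKO libraries against 2222, 2421 and 2978 in WT libraries, a fall of 0.52 ± 0.08 (adjusted p = 0.00215). None of these 3 genes had overlapping groups. Of 15 Notch genes 2 fell, with a median of -0.39. The receptor Notch1 (chromosome 2, 26457903 to 26516663) had 6905, 5961, 6097 and 5844 in VIPKO libraries, against 8649, 9180 and 10189.8 in WT libraries, and fell by 0.59 ± 0.12 (adjusted p = 0.00602), and the endothelial receptor Notch4 fell by 0.55 ± 0.15 (adjusted p = 0.0268) with VIPKO 1 at 4011, inside the WT range. At equal mitochondrial rRNA the changes were -0.59 for Ephb3, -0.79 for Efnb2, -0.63 for Efnb1 and -0.61 for Notch1, and with the term for the 4 libraries -0.43, -0.64, -0.53 and -0.58. Leaving out VIPKO 2 or 4, or WT 3, 4, 5 or 6, left 3 of the 5 ephrin and Eph calls. Leaving out VIPKO 1 gave 4 Notch calls, and Notch4 was lost without VIPKO 2, 3 or 4 or WT 3 (adjusted p up to 0.102).

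**Figure D4:**
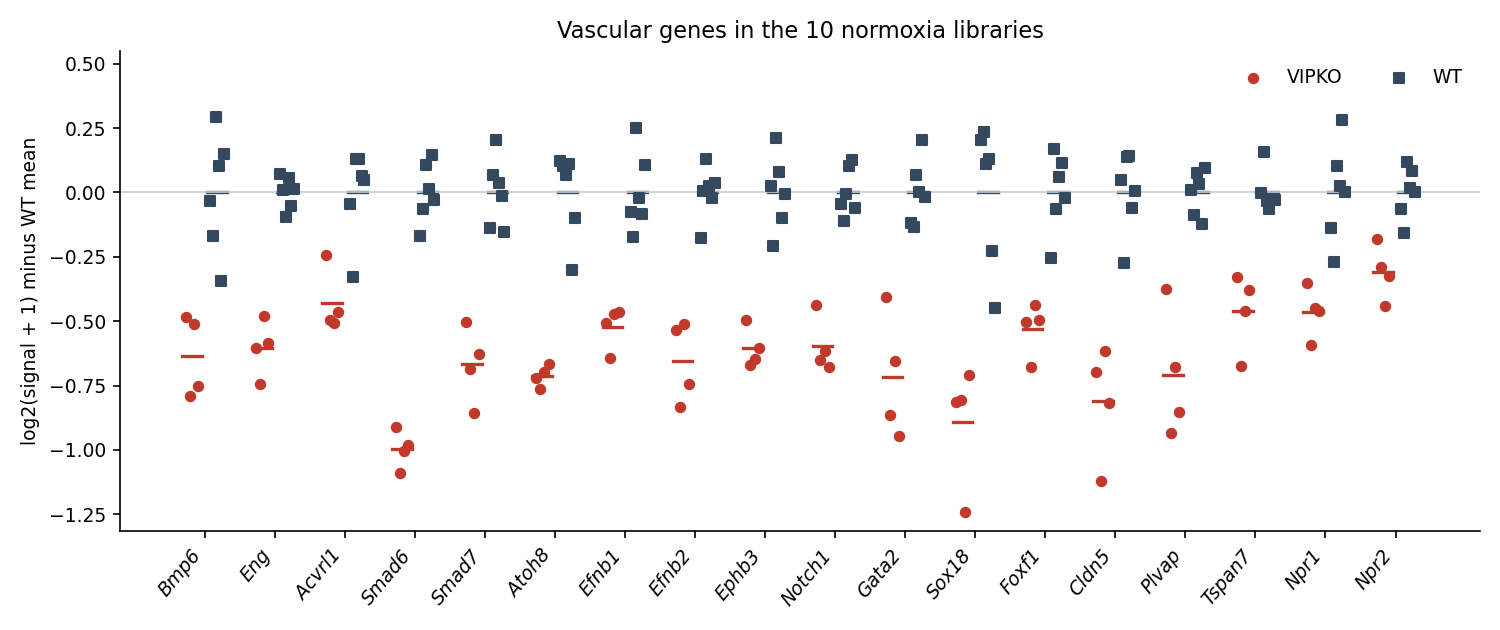
Log2(signal + 1) minus the WT mean for 18 vascular genes in each VIPKO (circles, left) and WT (squares, right) normoxia library, with the group mean as a bar. The VIPKO means lie between -0.996 for Smad6 and -0.31 for Npr2, and VIPKO 1 is the highest VIPKO point for Acvrl1, where it lies inside the WT range.

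Some endothelial identity genes fell. Of 22 endothelial transcription factors 5 fell, beside 3.96% of all genes that fell, and 20 had a negative change, with a median of -0.31. Gata2, which maintains endothelial gene expression, had 2305, 1679, 1938 and 1586 in VIPKO libraries, against 2781, 3039 and 3514 in WT libraries, and fell by 0.72 ± 0.15 (adjusted p = 0.00763). Sox18, a factor of vessel development, had 1403, 1412, 1045 and 1510.1 in VIPKO libraries, against 1808, 2683 and 2902 in WT libraries, and fell by 0.89 ± 0.20 (adjusted p = 0.0117). Foxf1, which is needed for lung capillaries, fell by 0.53 ± 0.14 (adjusted p = 0.0268), and Tbx2 fell by 0.59 ± 0.15 (adjusted p = 0.0194). Of 14 pan-endothelial markers 5 fell, with a median of -0.33. The tight-junction gene Cldn5 had 4096, 3053, 4334 and 3764 in VIPKO libraries, against 5491, 6759 and 7327 in WT libraries, and fell by 0.81 ± 0.17 (adjusted p = 0.00902). Every VIPKO library lay below every WT library for Gata2, Sox18 and Cldn5. Markers of vessel types gave 2 falls each, of 12 for general capillaries (Plvap, -0.71 ± 0.19, adjusted p = 0.0236, and Tspan7, -0.46 ± 0.11, adjusted p = 0.0192), of 11 for aerocytes, of 13 for arteries (Efnb2 and the gap-junction gene Gja5, -0.88 ± 0.24, adjusted p = 0.0306) and of 9 for veins. Pecam1, a general endothelial marker, missed the threshold (-0.33 ± 0.13, adjusted p = 0.103), as did Car4 of aerocytes (0.21 ± 0.13, adjusted p = 0.323). At equal mitochondrial rRNA the change was -0.62 for Gata2, -0.77 for Sox18 and -0.87 for Cldn5, and with the term for the 4 libraries -0.55, -0.91 and -0.67. Gata2 and Sox18 stayed called without any 1 library, while Cldn5 lost its call without VIPKO 2 (adjusted p = 0.0533), and Foxf1, Tbx2, Plvap, Tspan7 and Gja5 lost theirs without at least VIPKO 2 and 4 (up to 0.117). Of the 5 transcription factor calls 2 were left without VIPKO 2, 3 or 4 and 3 without WT 4, and with length and GC content taken out none of the 5 transcription factor falls (median -0.15) or the 5 pan-endothelial falls (-0.17) was called. Of the 5 pan-endothelial calls none without VIPKO 2 and 2 or 3 without any of 13 other libraries. No general capillary or aerocyte call was left without VIPKO 2 or 4, no venous call without any of 8 of the 10 normoxia libraries, and 6 arterial genes were called without VIPKO 1, 5 without WT hypoxia 1 or 4 and 1 without VIPKO 2 or 4 or WT 1, 3, 4 or 6.

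Other vessel cell types gave few calls. None of 15 smooth muscle genes, 12 pericyte genes or 39 collagens was called (0, 3 and 1 of them had an unadjusted p under 0.05), with medians of -0.13, -0.06 and -0.03. The smooth muscle gene Myh11 had 4965, 2722, 5326 and 1900.2 in VIPKO libraries and 1622, 3221 and 5386 in WT libraries, and both groups spread over much of that range. The smooth muscle median was -0.55 at equal mitochondrial rRNA (0.05 without WT hypoxia 5), and with the term for the 4 libraries it was -0.01. Of 8 lymphatic genes 1 rose, the guidance gene Sema3d (0.62 ± 0.15, adjusted p = 0.0177), which did not without VIPKO 4. Over all genes 4.69% rose.

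Genes of vascular tone were next examined, since VIP acts on it. The receptor gene Vipr2 had 249, 233, 501 and 229 in VIPKO libraries, against 275, 494 and 596 in WT libraries. It was lower in VIPKO 1, 2 and 4 than in any WT library, while VIPKO 3 lay at the WT level, and it missed the threshold (-0.70 ± 0.22, adjusted p = 0.0548), which it passed without VIPKO 3 (0.019), WT 5 (0.018), VIPKO hypoxia 3 (0.0491) or WT hypoxia 1 (0.0473). Vipr1 was not called (0.23 ± 0.22, adjusted p = 0.54). Of 24 adenylyl cyclases and phosphodiesterases, 3 cyclases fell, beside 3.96% of all genes that fell. Adcy9 had 1409, 1150.3, 1115 and 1193 in VIPKO libraries, against 1384, 1578 and 1774 in WT libraries, and fell by 0.39 ± 0.09 (adjusted p = 0.0141), Adcy6 fell by 0.33 ± 0.08 (adjusted p = 0.0196) and Adcy4 by 0.43 ± 0.13 (adjusted p = 0.0498). With length and GC content taken out the changes of Adcy9, Adcy6 and Adcy4 were -0.12, -0.02 and -0.19. Adcy6 and Adcy9 lost the call without VIPKO 2, 3 or 4 (adjusted p up to 0.0746) and Adcy4 without any of 14 of the 20 libraries (up to 0.137). Of 18 genes of nitric oxide, cyclic GMP and natriuretic peptides 2 fell, both receptors that make cyclic GMP. Npr1 (chromosome 3, 90450591 to 90465866) had 2605, 2205, 2436 and 2416 in VIPKO libraries, against 2761, 3353 and 4038 in WT libraries, and fell by 0.46 ± 0.10 (adjusted p = 0.0078). Npr2 had 2094, 1940.4, 1749.6 and 1896 in VIPKO libraries against 2128, 2390.3 and 2580.5 in WT libraries and fell by 0.31 ± 0.07 (adjusted p = 0.0122). Neither gene's groups overlapped, both calls held without any 1 library, and at equal mitochondrial rRNA the changes were -0.62 and -0.39. Adm, which codes for the vasodilator peptide adrenomedullin, had 24.8, 15.5, 141 and 30.3 in VIPKO libraries, against 99, 121 and 146 in WT libraries. VIPKO 3 lay within the WT range and the other VIPKO libraries below it, and the gene fell by 1.69 ± 0.46 (adjusted p = 0.0281), a call lost without VIPKO 1, 2 or 4 or WT 1 or 4 (adjusted p up to 0.139).

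Cyclic AMP targets and other immediate early genes, which respond within minutes to many stimuli, mostly had negative changes, few of which passed the test. Of 23 targets of cyclic AMP and CREB 2 fell, Dusp1 and Btg2, beside 3.96% of all genes that fell. Of 22 immediate early genes 6 fell, 20 had a negative change and the median was -0.49. Dusp1, a phosphatase that switches off stress kinases, had 2415, 2027, 4169 and 2167 in VIPKO libraries, against 3007, 5669 and 9626 in WT libraries, and fell by 1.20 ± 0.34 (adjusted p = 0.0339). VIPKO 3 lay within the WT range and the other VIPKO libraries below it. The antiproliferative gene Btg2 had 2269.5, 2152, 2833 and 2200.5 in VIPKO libraries, against 2595, 4296 and 6115 in WT libraries, and fell by 0.80 ± 0.22 (adjusted p = 0.0286), again with VIPKO 3 within the WT range. The AP-1 subunits Jun (-0.58 ± 0.14, adjusted p = 0.0186) and Jund (-0.62 ± 0.15, adjusted p = 0.0198) and the early response gene Ier2 (-0.87 ± 0.25, adjusted p = 0.0344) also fell, and their VIPKO values lay below the WT range. Fos and Nr4a1, chosen after their values were seen, did not pass: Fos had 574, 745, 962 and 728 in VIPKO libraries and 483, 1598 and 2899 in WT libraries (-0.82 ± 0.54, adjusted p = 0.358), and Nr4a1 had 608, 574, 1815 and 629 in VIPKO libraries and 619, 1306 and 2776 in WT libraries (-0.80 ± 0.53, adjusted p = 0.368). In the hypoxia libraries 3 of 22 slopes of the immediate early genes on mitochondrial rRNA were positive (7 without WT hypoxia 4), 3 of the 6 falls kept at least 0.5 of their size at equal mitochondrial rRNA (4 without WT hypoxia 5), and at equal mitochondrial rRNA the list median was -0.05, with -0.24 for Ier2, -0.36 for Btg2 and -0.89 for Dusp1. With the term for the 4 libraries the list median was -0.66, and with length and GC content taken out it was -0.24 and neither an immediate early gene nor a cyclic AMP target was called. No immediate early call was left without VIPKO 2 or VIPKO 4, 3 were left without VIPKO 3 or WT 4 and 2 without WT 3. Dusp1 lost its call also without VIPKO 1 or WT 3 to 6, Ier2 without VIPKO 3 or WT 2 to 4, Jund without VIPKO 3 and Btg2 without WT 3 (adjusted p up to 0.0763).

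The promoters of Dusp1 and Btg2 are shown because both carry the full cyclic AMP response element, TGACGTCA, which CREB binds, and those of Fos and Nr4a1 because they carry only its shorter form, TGACG. Each window runs from 250 bases before to 50 bases after the RefSeq transcript start (GRCm38.p6), is written 5′ to 3′ on the gene's strand, and has TGACG or its complement CGTCA in capitals, which merge in the full element. The windows are chr17:26508423-26508722 (minus strand) for Dusp1, chr1:134079106-134079405 (minus) for Btg2, chr12:85473640-85473939 (plus) for Fos and chr15:101266596-101266895 (plus) for Nr4a1.
Dusp1: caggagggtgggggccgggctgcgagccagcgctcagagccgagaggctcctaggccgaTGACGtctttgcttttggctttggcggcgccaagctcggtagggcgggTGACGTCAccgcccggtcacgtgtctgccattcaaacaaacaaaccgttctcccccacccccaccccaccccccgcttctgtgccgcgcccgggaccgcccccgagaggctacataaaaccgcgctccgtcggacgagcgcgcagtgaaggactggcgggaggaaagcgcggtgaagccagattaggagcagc
Btg2: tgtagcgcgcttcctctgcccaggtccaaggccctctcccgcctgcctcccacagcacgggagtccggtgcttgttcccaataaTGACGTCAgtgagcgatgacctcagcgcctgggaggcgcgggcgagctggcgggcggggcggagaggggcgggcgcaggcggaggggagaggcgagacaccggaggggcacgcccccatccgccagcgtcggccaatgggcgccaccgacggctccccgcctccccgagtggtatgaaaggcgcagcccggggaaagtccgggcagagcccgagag
Fos: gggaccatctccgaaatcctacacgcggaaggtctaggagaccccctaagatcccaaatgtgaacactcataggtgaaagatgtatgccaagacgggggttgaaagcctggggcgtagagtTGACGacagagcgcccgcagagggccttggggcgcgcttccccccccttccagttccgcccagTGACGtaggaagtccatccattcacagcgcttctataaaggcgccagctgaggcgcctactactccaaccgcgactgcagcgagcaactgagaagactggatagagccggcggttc
Nr4a1: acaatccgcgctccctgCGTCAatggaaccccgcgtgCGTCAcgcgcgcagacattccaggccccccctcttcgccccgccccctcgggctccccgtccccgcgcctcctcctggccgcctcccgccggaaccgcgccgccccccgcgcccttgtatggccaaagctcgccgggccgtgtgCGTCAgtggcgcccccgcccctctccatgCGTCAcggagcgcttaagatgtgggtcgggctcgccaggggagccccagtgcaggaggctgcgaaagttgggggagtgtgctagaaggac
Of 27025 mouse genes with 1 or more windows, 549 held the full element in any of them (2.03%) and 6228 the TGACG form on either strand (23.0%). Of 24 cyclic AMP and CREB targets, 19 matched, with 29 windows, and 3 of the 19 held the full element (15.8%, Areg, Btg2 and Dusp1) and 16, these 3 included, the shorter form (84.2%). Targets had more windows per gene than all genes, so these shares are not on the same footing. The genes were also listed because they are targets of CREB. A gap to all genes can therefore come from how the list was made and is no result of these data. Areg, which codes for a growth factor, was not called (0.24 ± 0.42, adjusted p = 0.763), so the full element was found in 2 genes that fell and in 1 that did not pass.

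Many airway epithelial genes rose in VIPKO lungs. Over lists of secretory and ciliated cell genes, mucins, BPI fold proteins and cilium parts, 32 of 87 tested genes rose and none fell, beside 4.69% of all genes that rose, with a median of 0.50, or 0.70 at equal mitochondrial rRNA, where 30 of the 32 kept at least 0.5 of their rise. With the term for the 4 libraries the median was 0.33, and VIPKO 1 lay above every WT library for 11 of the 32. Without VIPKO 2, 3 or 4 or WT 4 there were 9, 15, 9 and 20 of them, and with length and GC content taken out 17. Of 17 secretory cell genes 12 rose, with a median of 2.37, or 1.35 with the term for the 4 libraries. VIPKO 1 lay above every WT library for 3 of the 12, and the list's median difference from the WT mean was 1.01 in VIPKO 1 and 3.23 over VIPKO 2 to 4. Scgb3a1, a secretoglobin of large airways (chromosome 11, 49663610 to 49665118), had 304, 1455, 2093 and 2259 in VIPKO libraries, against 0, 12.7 and 544 in WT libraries, and rose by 5.93 ± 1.14 (adjusted p = 0.00591). Bpifa1, an antimicrobial protein of the upper airway (chromosome 2, 154142880 to 154149219), had 541, 739, 5008 and 3000.3 in VIPKO libraries, against 3.15, 20.8 and 1007 in WT libraries, and rose by 5.58 ± 1.05 (adjusted p = 0.00541). WT 5 was the highest WT library for both genes, above VIPKO 1 for Scgb3a1 and above VIPKO 1 and 2 for Bpifa1, while the other WT libraries lay below all 4 VIPKO libraries. The antibacterial lectin Reg3g rose by 5.41 ± 1.05 (adjusted p = 0.00599). Of 10 mucins 3 rose, among them the gel-forming Muc5b, with 2605, 10831, 7485 and 7518 in VIPKO libraries, against 289, 493 and 4576 in WT libraries (2.99 ± 0.60, adjusted p = 0.00693), and Muc5ac (1.90 ± 0.50, adjusted p = 0.0235). The highest WT value of Muc5b, again that of WT 5, lay above VIPKO 1. A pair of club cell markers parted, Scgb1a1 at 0.81 ± 0.23 (adjusted p = 0.0329), chosen after its values were seen, and Cyp2f2 at 0.17 ± 0.19 (adjusted p = 0.616). The summed signal of the secretory list was 314322, 338089, 380015 and 534684 in VIPKO libraries, against 193286, 238820 and 271298 in WT libraries, and did not overlap. Without VIPKO 2 or 4, 6 of the 12 secretory calls were left, and without VIPKO 2, VIPKO 4 or WT 4 1 of the 3 mucin calls.

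Motile cilium genes rose in part, with smaller changes. Of 19 ciliated cell genes 8 rose, of 32 cilia and flagella associated proteins 10 rose, and of 15 axonemal dynein heavy chains 4 rose. Over all genes 4.69% rose. Cfap126, needed to place basal bodies, had 165, 295, 290.3 and 271 in VIPKO libraries, against 66, 83.3 and 205 in WT libraries, and rose by 1.38 ± 0.28 (adjusted p = 0.00763). VIPKO 1 lay below the highest WT library. Rsph1, a part of the radial spoke, had 152, 316, 275 and 320.2 in VIPKO libraries, against 76.4, 114 and 139 in WT libraries, with no overlap (1.20 ± 0.26, adjusted p = 0.0097). The dynein genes Dynlrb2 (0.87 ± 0.20, adjusted p = 0.0138) and Dnah5 (0.71 ± 0.20, adjusted p = 0.0307) also rose. Foxj1, the master factor of ciliated cells, chosen after its values were seen, had 1327, 1633, 1474 and 1854 in VIPKO libraries and 1236, 1743 and 1845 in WT libraries, with overlapping groups (-0.08 ± 0.19, adjusted p = 0.828), and its sign turned to 0.30 with length and GC content taken out. The ciliated median was 0.70 at equal mitochondrial rRNA, against 0.44 without the covariate, and with the term for the 4 libraries it was 0.32, while the medians of the cilia and flagella family and of the dynein heavy chains were 0.35 and 0.17 with the term and 0.53 and 0.30 without it. With length and GC content taken out 4 ciliated cell genes, 6 of the family and no dynein heavy chain were called. Scgb3a1, Bpifa1, Reg3g, Muc5b and Cfap126 stayed called without any 1 library. Leaving out VIPKO 2 or 4 ended the calls of Muc5ac, Scgb1a1, Rsph1, Dynlrb2 and Dnah5 (adjusted p up to 0.138), leaving out VIPKO 3 or WT 3 those of Scgb1a1 and Dnah5 (up to 0.0743), WT 4 those of Muc5ac, Scgb1a1 and Dnah5 (up to 0.067) and WT 6 that of Scgb1a1 (0.0554). Without VIPKO 2, 3 or 4 there were 1, 3 and 1 of the 8 ciliated cell calls and 3, 5 and 3 of the 10 of the cilia and flagella family, and no dynein heavy chain call was left without VIPKO 2, 3 or 4 or WT 3 or 4 and 2 without any of 6 other libraries.

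**Figure D5:**
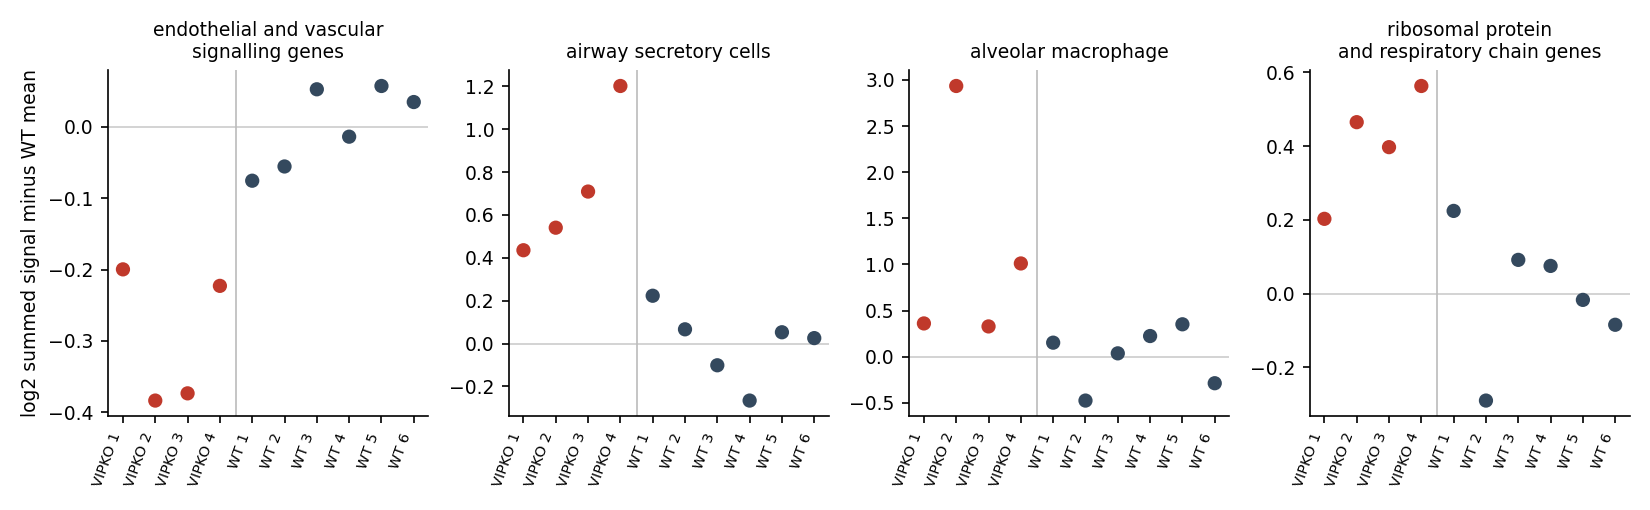
Log2 summed signal minus the WT mean of 4 gene groups in each VIPKO and WT normoxia library. The vascular sum is lower and the airway secretory sum higher in all 4 VIPKO libraries than in any WT library, the alveolar macrophage sum is led by VIPKO 2 at 91512, and for ribosomal protein and respiratory chain genes WT 1 reaches above VIPKO 1.

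Of the alveolar macrophage genes 8 rose, with 1 library far above the rest. Of 17 genes 8 rose, beside 4.69% of all genes that rose, and all 17 had a positive change, with a median of 0.87. The scavenger receptor gene Marco had 106, 617, 63.1 and 228 in VIPKO libraries, against 11.3, 42.7 and 77.4 in WT libraries, and rose by 2.19 ± 0.55 (adjusted p = 0.0201). The mannose receptor gene Mrc1 had 1811, 3931, 1781 and 2232 in VIPKO libraries, against 1025, 1186 and 1684 in WT libraries, and rose by 0.87 ± 0.20 (adjusted p = 0.0131). Mrc1 had no overlap, and for Marco VIPKO 3 lay within the WT range. The lysosomal protease Ctsk (1.62 ± 0.44, adjusted p = 0.0262), the proton pump subunit Atp6v0d2 (1.27 ± 0.33, adjusted p = 0.0228) and the ribonuclease Ear2, which has near-identical copies (0.89 ± 0.22, adjusted p = 0.0178), rose as well. VIPKO 2 was the highest library for Marco, Mrc1, Ctsk and Atp6v0d2. The summed signal of the list was 15364, 91512, 15022 and 24113 in VIPKO libraries, against 8606, 12784 and 15265 in WT libraries. VIPKO 3 lay within the WT range. Without VIPKO 2 none of the 8 calls was left, without VIPKO 4 there was 1 and without WT 6 there were 3. The median was 0.38 at equal mitochondrial rRNA, where 4 of the 8 kept at least 0.5 of their rise, and with the term for the 4 libraries the median was 0.93. With length and GC content taken out 4 were called. Of 17 type 2 alveolar cell genes 3 rose: S100g, a calcium-binding protein gene, had 160.5, 249, 309 and 283 in VIPKO libraries, against 67.1, 80.9 and 129.8 in WT libraries (1.45 ± 0.27, adjusted p = 0.00462), Lamp3 of lamellar bodies rose by 0.65 ± 0.16 (adjusted p = 0.0186) and the surfactant protein gene Sftpd by 0.78 ± 0.23 (adjusted p = 0.0432). Sftpc did not pass (0.30 ± 0.24, adjusted p = 0.467). The type 2 median was 0.29, or 0.25 with the term, and 0.00 at equal mitochondrial rRNA (-0.24 without WT hypoxia 5), and without VIPKO 2 or VIPKO 4 only 1 of the 3 calls was left.

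Part of the ribosomal protein and respiratory chain genes rose. Of 170 nuclear genes 59 rose (34.7%, beside 4.69% of all genes) and 1 fell, with a median of 0.45, and at equal mitochondrial rRNA the median was -0.04 and 23 of the 59 kept at least 0.5 of their rise. By list this was 0 of 9 complex I calls (of 36 genes) and 2 of 8 in complexes III and IV (of 25), with Ndufa4 in both. It was 2 of 8 in ATP synthase (of 16) and 19 of 35 cytosolic ribosomal protein calls (of 94). Without WT hypoxia 5, whose complex I sum of 25125 lay above the other hypoxia libraries (up to 22091), it was 5, 3, 4 and 16 of these calls, and the median over all 170 genes was 0.06. Ndufa5, a complex I subunit, had 119, 162, 155 and 187 in VIPKO libraries, against 48, 59.8 and 84 in WT libraries, and rose by 1.31 ± 0.22 (adjusted p = 0.00306), or 0.50 ± 0.37 at equal mitochondrial rRNA. Uqcrb of complex III had 220.4, 422, 433 and 305 in VIPKO libraries, against 79.2, 126 and 172 in WT libraries, and rose by 1.42 ± 0.27 (adjusted p = 0.00534), or 0.36 ± 0.42 at equal mitochondrial rRNA. Atp5k of ATP synthase rose by 2.02 ± 0.38 (adjusted p = 0.00555), or 0.95 ± 0.67 at equal mitochondrial rRNA. In the hypoxia libraries 151 of the 170 slopes on mitochondrial rRNA were positive, 130 without WT hypoxia 5 and 112 without WT hypoxia 4. Without WT hypoxia 5 the changes of Ndufa5, Uqcrb and Atp5k at equal mitochondrial rRNA were 0.98 ± 0.39, 0.59 ± 0.50 and 1.85 ± 0.71. Ndufa5, Uqcrb and Atp5k had no overlap between groups. With the term for the 4 libraries the changes were 1.01 ± 0.30, 0.96 ± 0.34 and 1.97 ± 0.53, and 54 of the 59 rises kept at least 0.5 of their size. With length and GC content taken out 29 genes were called higher. Leaving out VIPKO 2, 3 or 4 left 22, 29 and 22 of the 59 (3, 4 and 2 of 9 in complex I, 2, 3 and 1 of 8 in complexes III and IV, 2, 4 and 2 of 8 in ATP synthase, and 16, 19 and 17 of 35 ribosomal proteins), leaving out WT 6 left 5 in complex I and 4 in complexes III and IV, and leaving out WT 3 left 5 in complexes III and IV. Ndufa5, Uqcrb and Atp5k stayed called without any 1 library.

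Rps29 and Rpl38 code for proteins of the small and the large ribosomal subunit. Rps29 had 1024, 1926, 2358 and 2660.4 in VIPKO libraries, against 435, 530.2 and 815 in WT libraries, and rose by 1.73 ± 0.24 (adjusted p = 0.00179). Rpl38 had 214, 565, 447 and 255 in VIPKO libraries, against 48.5, 74.4 and 109 in WT libraries, and rose by 2.18 ± 0.33 (adjusted p = 0.00197). Neither had overlapping groups, and at equal mitochondrial rRNA the changes were 0.98 ± 0.42 for Rps29 and 1.496 ± 0.60 for Rpl38. Both have processed pseudogenes, so reads may be shared among copies and the values are uncertain. The 1 fall was that of Sco2, a copper chaperone of complex IV, whose annotated span overlaps Tymp on the same strand: it had 45.2, 9.53, 12.5 and 40.0 in VIPKO libraries, against 49.1, 76 and 252 in WT libraries (-2.10 ± 0.49, adjusted p = 0.0145), and lost the call without VIPKO 2 or VIPKO 3 (adjusted p up to 0.0763). Of 41 proteasome subunits 9 rose (Psma4, 0.64 ± 0.15, and -0.08 at equal mitochondrial rRNA), of 13 U snRNA and spliceosome core genes 4 rose (Snrpg, 1.36 ± 0.29, adjusted p = 0.00977), and of 20 sterol synthesis genes 5 rose. Over all genes 4.69% rose. With length and GC content taken out no proteasome subunit was called higher and 1 was called lower, and 2 spliceosome genes and 1 sterol gene were called higher. The isoprenoid enzyme genes Idi1 (0.63 ± 0.16, adjusted p = 0.0221) and Fdps (0.75 ± 0.20, adjusted p = 0.0277) changed by 0.28 and -0.15 at equal mitochondrial rRNA. For none of the 5 sterol genes did VIPKO 1 lie above the WT range, and none stayed called without VIPKO 2, 3 or 4, while 1 was left without WT 3 and 3 without WT 2, 5 or 6. Of the 9 proteasome calls 2, 3 and 1 were left without VIPKO 2, 3 or 4 and 5 without WT 3, 4 or 6. Psma4 lost its call without VIPKO 2 or 4 (adjusted p up to 0.0656) and Snrpg without VIPKO 2 (0.0515), where 2 of the 4 spliceosome calls were left.

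Some protein genes of mitochondrial DNA rose. All 13 protein genes had a positive change, with a median of 0.69. Of these 3 rose, mt-Atp8, mt-Nd6 and mt-Nd4l, beside 4.69% of all genes that rose. At an unadjusted p under 0.05 by limma 11 of the 13 were higher, beside 2857 of 21658 genes. With length and GC content taken out 1 was called. The ATP synthase subunit mt-Atp8 had 2000, 7176, 8133 and 10660.1 in VIPKO libraries, against 243, 295 and 1331 in WT libraries, with no overlap, and rose by 3.797 ± 0.62 (adjusted p = 0.00257). mt-Nd6, the protein gene of the light strand, had 6731, 11192, 8986 and 11050.1 in VIPKO libraries, against 3147, 3943 and 5659.9 in WT libraries (1.18 ± 0.30, adjusted p = 0.0204), and its change at equal mitochondrial rRNA was -0.16 ± 0.45, or 0.46 ± 0.47 without WT hypoxia 5. The abundant cytochrome oxidase gene mt-Co1, chosen after its values were seen, had 78135, 108368, 92651 and 128892 in VIPKO libraries and 59998, 73545 and 135594 in WT libraries, with overlapping groups (0.36 ± 0.23, adjusted p = 0.354). In the hypoxia libraries all 13 slopes on mitochondrial rRNA were positive, with a median of 0.48. Leaving out WT 2, whose mt-Co1 was highest and whose mitochondrial rRNA was lowest of its group, gave 6 called genes, leaving out WT hypoxia 4 gave 5, and leaving out VIPKO 2 or VIPKO 4 gave 1. mt-Nd6 lost its call in the last 2 cases (adjusted p up to 0.0844).

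Of 9 small nucleolar RNA genes 2 rose (1 without VIPKO 2, 3 or 4 or WT 1, 5 or 6, and 5 without WT 2). Over all genes 4.69% rose. Snord15b, which stayed called, is a box C/D RNA, a class that guides chemical modification of ribosomal RNA and is named for the short conserved boxes that bind its core proteins, and its sequence is given because box C and box D can be read in it. It lies at chr7:99479563-99479707 (GRCm38, minus strand, 145 bases), inside the ribosomal protein gene Rps3. Capitals mark the letters TGATGA of box C and CTGA of box D, and the second CTGA lies near the 3′ end.
Snord15b: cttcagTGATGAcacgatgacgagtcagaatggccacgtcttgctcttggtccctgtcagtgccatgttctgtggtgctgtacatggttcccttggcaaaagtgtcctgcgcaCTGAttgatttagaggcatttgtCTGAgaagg
Snord15b had 167, 38.7, 189 and 46 in VIPKO libraries, against 0, 3.97e-07 and 19.5 in WT libraries, and rose by 5.04 ± 0.93 (adjusted p = 0.00496). No VIPKO library overlapped the WT range, which naming by size of change required. The values of VIPKO 1 and 3 were the highest, and the rise was 5.22 ± 1.78 at equal mitochondrial rRNA and 4.59 ± 1.28 with the term for the 4 libraries. Its host gene Rps3 was not called, with a change of 0.17 ± 0.23 (adjusted p = 0.7).

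A few genes of detoxification and oxidant defence rose. Of 27 xenobiotic genes 3 rose and of 21 NRF2 and antioxidant genes 3 rose, beside 4.69% of all genes that rose. All 6 kept at least 0.5 of their rise at equal mitochondrial rRNA (3 without WT hypoxia 5). The medians were 0.28 and 0.18, or 0.31 and 0.26 with the term for the 4 libraries, and 3 xenobiotic genes and 1 NRF2 gene were called with length and GC content taken out. Cyp2a5, a cytochrome P450 with a near-identical copy, had 881, 867, 896 and 2332 in VIPKO libraries, against 82.1, 188 and 608 in WT libraries, with no overlap, and rose by 2.59 ± 0.45 (adjusted p = 0.00335). Cyp2e1, which oxidises small molecules such as ethanol, had 166, 148, 216 and 229 in VIPKO libraries, against 22, 55.9 and 74.6 in WT libraries, again with no overlap (1.93 ± 0.42, adjusted p = 0.0106). The glutathione transferase Gsto1 rose by 0.91 ± 0.19 (adjusted p = 0.00916). Thioredoxin (Txn1), which reduces protein disulfides, had 1121, 1618, 1226 and 1346 in VIPKO libraries, against 534, 704 and 828 in WT libraries, and rose by 0.93 ± 0.15 (adjusted p = 0.00258), and Gclm, a subunit of the enzyme that starts glutathione synthesis, rose by 0.44 ± 0.11 (adjusted p = 0.0232). Of 20 hypoxia-inducible factor genes and targets 1 rose, which is close to the share over all genes. It was the oxygen-regulated subunit Hif1a, with 1414, 1768, 1502 and 1841 in VIPKO libraries, against 1090.4, 1164 and 1443 in WT libraries (0.41 ± 0.10, adjusted p = 0.0181). Its target Vegfa, made in lung mainly by type 1 cells, had 15492, 13055, 12909 and 15515 in VIPKO libraries, against 15978, 18591 and 22125 in WT libraries, and fell by 0.40 ± 0.10 (adjusted p = 0.02), or -0.09 at equal mitochondrial rRNA. Cyp2a5, Cyp2e1 and Txn1 stayed called without any 1 library, while Gsto1, Gclm and Hif1a lost their calls without VIPKO 2 or 4 and Vegfa without VIPKO 2 or 3 (adjusted p up to 0.114). Without WT hypoxia 4, 5 NRF2 and antioxidant genes rose and 1 fell.

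Members of several families of developmental regulators fell, beside 3.96% of all genes that fell (4.69% rose). Of 29 forkhead factors 6 fell, of 18 Hox genes 3, of 13 SOX factors 3 (1 rose) and of 62 protocadherins 10, with medians of -0.24, -0.28, -0.30 and -0.31, or -0.14, -0.20, -0.19 and -0.34 with the term for the 4 libraries. Of these falls 6 forkhead, 3 Hox, 3 SOX and 7 protocadherin ones kept at least 0.5 of their size at equal mitochondrial rRNA, and 3, 1, 2 and 7 did without WT hypoxia 5. Foxf2, a mesenchymal forkhead factor, had 728, 594, 652 and 602 in VIPKO libraries, against 705, 1195 and 1546 in WT libraries, and fell by 0.80 ± 0.19 (adjusted p = 0.0153). Hoxb2, which patterns the body axis, had 141, 87.7, 110.3 and 102 in VIPKO libraries, against 151, 184 and 239 in WT libraries, with no overlap (-0.81 ± 0.17, adjusted p = 0.00907). Hoxb6 fell by 0.96 ± 0.26 (adjusted p = 0.025) with VIPKO 1 at 78.9, close to the WT median. Protocadherins are adhesion proteins: Pcdh1, of airway and endothelial cells, had 7683, 5400, 5329 and 6492 in VIPKO libraries, against 8048, 9172 and 9688 in WT libraries, and fell by 0.55 ± 0.14 (adjusted p = 0.0207). Pcdhga7, of a gene cluster whose members share their last exons, so that reads may be split among them, fell by 0.76 ± 0.19 (adjusted p = 0.0217), or -0.14 at equal mitochondrial rRNA. The S100 calcium-binding proteins went the other way, with 5 of 12 rises and all 12 changes positive, and a median of 0.76, or 0.87 with the term. S100a11 had 1027, 1881, 1692 and 2055 in VIPKO libraries, against 427, 502 and 1261 in WT libraries, rose by 1.44 ± 0.28 (adjusted p = 0.00621) and stayed called without any 1 library. Leaving out VIPKO 2, 3 or 4 left 1, 2 and 1 forkhead falls, 0, 1 and 1 Hox falls, 1 SOX fall and no SOX rise each time and 0, 2 and 0 protocadherin falls. Leaving out WT 1, 3, 4 or 6 left 6, 4, 6 and 4 protocadherin falls, leaving out WT 3 left 1 Hox fall, leaving out WT 3, 4 or 5 left 1 SOX fall, and leaving out VIPKO 2 or 4 left 2 of the S100 rises. Of the genes named, Foxf2 and Hoxb2 lost their calls without VIPKO 2, Foxf2 without VIPKO 4, and Hoxb6, Pcdh1 and Pcdhga7 without VIPKO 2, 3 or 4, and Hoxb6 also without WT 3 (adjusted p up to 0.0975). With length and GC content taken out, none of the forkhead, Hox or protocadherin falls was called.

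Single genes of several immune lists were called. Of 22 NF-kB and cytokine genes 2 fell and of 18 prostanoid genes 1 fell, beside 3.96% of all genes that fell. Of 31 chemokines 2 rose, of 14 neutrophil genes 1 and of 16 complement genes 1, beside 4.69% of all genes that rose. With so few calls per list, the genes below are given singly and not as a trait of innate sensing. The intracellular receptors of bacterial wall fragments both fell: Nod1 had 1782, 1770.2, 1515 and 1484 in VIPKO libraries, against 2261, 2472 and 2561 in WT libraries (-0.58 ± 0.09, adjusted p = 0.00198), and Nod2 had 137, 129.9, 160.1 and 119.9 in VIPKO libraries against 221, 249 and 297 in WT libraries (-0.86 ± 0.20, adjusted p = 0.0146). Neither had overlapping groups. The prostaglandin D2 receptor gene Ptgdr2, of type 2 lymphoid cells and eosinophils, had 21.1, 30.5, 38.6 and 17.9 in VIPKO libraries, against 49.6, 80.4 and 87 in WT libraries, also with no overlap, and fell by 1.46 ± 0.40 (adjusted p = 0.028). Cxcl17, a mucosal chemokine, had 227, 431, 271 and 369 in VIPKO libraries, against 99, 124 and 149 in WT libraries, and rose by 1.38 ± 0.23 (adjusted p = 0.00264). Lactoferrin (Ltf), made by airway glands and neutrophils, rose by 2.76 ± 0.63 (adjusted p = 0.0135). It stood also on a list of 14 neutrophil genes, all with a positive change, whose summed signal was 3128, 10968, 3717 and 3058 in VIPKO libraries and 1708, 2071 and 2537 in WT libraries. Complement factor D (Cfd), also made by fat, had 166, 184, 1067 and 383 in VIPKO libraries, against 4.72, 32.4 and 185 in WT libraries (3.59 ± 0.86, adjusted p = 0.0166), and beside it the fat gene Adipoq had 11.5, 24.4, 173 and 52.4 in VIPKO libraries and 0, 2.8 and 56.6 in WT libraries; its part in the rise of Cfd was not tested. Without VIPKO 2 or 4 Nod2, Ptgdr2 and Ltf lost their calls, Ltf and Cfd did without VIPKO 3, Cfd also without VIPKO 4, and Ptgdr2 without VIPKO 1, WT 3 or WT 4 (adjusted p up to 0.110), whereas Nod1 and Cxcl17 kept theirs throughout. None of the lists of B cells, T cells, natural killer cells, plasma cells or heat shock genes held a call (2, 0, 2, 0 and 1 genes had an unadjusted p under 0.05).

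Several further genes were named by the size of their change. They came from called genes whose groups did not overlap and whose higher group averaged 50 or more. Among the falls that kept at least 0.5 of their size at equal mitochondrial rRNA were Tmcc2, a coiled-coil membrane protein gene, with 3188, 2557, 2998 and 2624 in VIPKO libraries, against 4361, 5141 and 5813 in WT libraries (-0.86 ± 0.14, adjusted p = 0.00207), Ankrd63 (-1.17 ± 0.24, adjusted p = 0.00763), Zfp771 (-0.82 ± 0.18, adjusted p = 0.0115) and Ccdc142 (-0.97 ± 0.26, adjusted p = 0.0254). Ccdc142 lost its call without VIPKO 2, VIPKO 4 or WT 3 (adjusted p up to 0.121), and the others did not. The rule also named Rps2-ps8, with 37.6, 2.24e-13, 7.03 and 6.67e-16 in VIPKO libraries, against 38.1, 55.5 and 65.9 in WT libraries. Among these 10 it was under 10 only in VIPKO 2, 3 and 4, and its change was -3.68 ± 0.87, or -0.40 ± 0.56 with the term for the 4 libraries. The histone genes H2bc15 (2.01 ± 0.45, adjusted p = 0.0115) and H3f3c (2.12 ± 0.39, adjusted p = 0.00513) rose, the second with near-identical copies, and H2bc15 lost its call without VIPKO 2 (adjusted p = 0.0649), as did Rps2-ps8, which also did without VIPKO 4. Zfp579, a zinc finger gene, fell by 0.85 ± 0.16 (adjusted p = 0.00516) and changed by -0.23 at equal mitochondrial rRNA.

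The genotype contrast was also made in the hypoxia libraries, among which VIPKO hypoxia 2 shares the pattern of VIPKO 2, 3 and 4. There 350 genes (1.62%) were called, and the change had the sign of the normoxia change for 76.8% of the rises and 79.3% of the falls seen in normoxia, beside 52.8% positive changes over all genes. Without VIPKO hypoxia 2 these shares were 75.0% and 78.6%, beside 51.6%. The airway genes went the other way: 25% of their 32 rises had a positive change in hypoxia, or 28.1% without VIPKO hypoxia 2. Of the 28 vascular falls 71.4% were negative there. Of the 59 ribosomal protein and respiratory chain rises 81.4% were positive. With the term for the 4 libraries 140 genes were called in hypoxia, and 21 without those libraries. Called in the same direction in both were 70 genes, 3.74% of the normoxia calls and 20% of the hypoxia calls. The count of hypoxia calls hung on single libraries: it was 189, 35, 1339, 79 and 143 without VIPKO hypoxia 1 to 5 and 102, 194, 76 and 588 without WT hypoxia 1 to 4. Among the vascular genes, Bmp6 (-0.55), Efnb2 (-0.58), Npr2 (-0.30) and Plvap (-0.76) were called lower in hypoxia too, and Smad6 had -0.36 and missed the threshold. Ltbp3 (-0.50) and Ankrd63 (-2.16) were also called lower in both, and Snord15b (3.70) higher in both. Among the genes named here, the genotype change differed between room air and hypoxia, by limma's test of the difference, for Atoh8 (-0.81 ± 0.15 for normoxia minus hypoxia, adjusted p = 0.0291), Efnb1 (-0.58 ± 0.12, 0.0397), Nod1 (-0.63 ± 0.13, 0.0384), Bpifa1 (6.87 ± 1.46, 0.048), Cyp2a5 (4.28 ± 0.63, 0.0117) and Gsto1 (1.34 ± 0.27, 0.0384), 6 of the 61 genes (0.282%) called for that difference.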

How the data were processed

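RNA was sequenced from whole lungs in 20 samples in 4 groups, of which the 4 VIPKO and 6 WT normoxia libraries form the comparison. Per the labels' protocols, a directional NEBNext Ultra II kit was used on 1 µg of total RNA, isolated with a Qiagen RNeasy Mini Plus kit. Partek and the mm10 build are named per the submitters' processing notes. Aligner, counting, use of strand and normalization: not given in the sources used here. Per gene and library, the deposited table has 1 normalized signal, in 30746 lines, of which 55 carry no gene name and were left out and 133 repeat a name. The signal is not a count: between 82.1% and 89.1% of low values in the normoxia libraries lay within 0.05 of a whole multiple of 1 step, which gave estimated depths of 12.04 to 56.7 M reads, but in VIPKO hypoxia 2 the share was 21.4%, so no count test was run. At these depths 3 reads correspond to a signal of 1.03 to 5.03, and genes near that level are limited by counting.

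Genes with a signal of at least 10 in at least 4 libraries were tested (21658), on log2(signal + 1), with limma 3.58.1 (R 4.3.3, variance trend) on 4 group means over all 20 libraries, the contrast VIPKO minus WT in normoxia, and Benjamini-Hochberg adjustment at 0.05. A second fit added the log2 mitochondrial rRNA level, and another fit, added after seeing the data, a term for VIPKO normoxia 2, 3 and 4 and VIPKO hypoxia 2. Keeping at least 0.5 of the log2 fold change in these fits is a description. Single values were compared by exact permutation. The steps were tested on simulated data. Errors beside log2 fold changes are standard errors. Gene lists (76) and name families (49) were described by counts and medians, and the members, lists and tests were chosen with earlier results of these data known. Named genes are up to 4 called genes of smallest p per list or family, and the called genes of largest change whose groups do not overlap and whose higher group averages 50 or more (10 rises and 10 falls that kept at least 0.5, 6 and 6 that did not). The text does not print every gene so chosen. Coordinates are GENCODE vM21 on GRCm38 and promoter windows are from RefSeq. Alternatives were another pseudocount, other filters, rescaling, quantile normalization, no trend, library weights, normoxia libraries only, a replicate block, a length and GC correction, and leaving out libraries.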

Additional observations from a re-analysis of the deposited data

Results flagged for a closer look

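Single libraries lay far from the others of their group in 14 of 190 groups of values tested (7.37%, where chance gives about 1 in 20), judged by the gap to the nearest library as a share of the group's range. Among VIPKO normoxia libraries, VIPKO 1 was high for Acvrl1 (0.835), Tbx2 (0.921) and Zfp579 (0.870) and low for Cfap126 (0.857). VIPKO 3 was high for Vipr2 (0.894) and Nr4a1 (0.921). VIPKO 4 was high for Cyp2a5 (0.966) and low for Ccdc142 (0.857). Among WT normoxia libraries, WT 2 was high for Tspan7 (0.712), Cfap126 (0.667) and mt-Co1 (0.684) and low for Psma4 (0.655), WT 4 was low for Foxj1 (0.695) and WT 5 was low for Gja5 (0.767). In these genes, VIPKO 1 is the library that lay nearest to the WT values for Acvrl1, Tbx2, Zfp579 and Cfap126.

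The genotype change differed between room air and hypoxia, by limma's test of the difference over all genes, for 6 genes named in the report. The normoxia change minus the hypoxia change was -0.81 for Atoh8 (adjusted p = 0.0291), -0.58 for Efnb1 (0.0397) and -0.63 for Nod1 (0.0384), which were lower in VIPKO lungs in room air. It was 6.87 for Bpifa1 (0.048), 4.28 for Cyp2a5 (0.0117) and 1.34 for Gsto1 (0.0384), which were higher in VIPKO lungs in room air.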

How the results depend on the processing

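Pseudocount 5, no filter, a filter at 50, rescaling, quantile normalization, no trend and normoxia libraries only kept the number of genes called in normoxia within 1.5 times of 1873 (1443 to 2201). Library weights gave 5448 (2740 higher, 2708 lower), the length and GC correction 539 (375, 164), and leaving out VIPKO normoxia 2 and 3 together 0 (2991 at an unadjusted p under 0.05), as did the mitochondrial rRNA covariate, the term for the libraries that stood apart and leaving those out. Leaving out 1 library gave 359 to 2551 (191 to 1324 higher, 168 to 1227 lower). The replicate numbers do not pair VIPKO and WT libraries (correlations of same-numbered libraries -0.194 to -0.0743, 0 of 4 best with its own number); a replicate block gave 682 called genes (374 higher, 308 lower), or 26 (21, 5) together with the GC correction.

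Of the vascular genes 58 fell with weights, 11 with the replicate block, 7 with the GC correction, 0 with block and GC, without VIPKO normoxia 2 and 3, with the covariate, with the term and without the libraries that stood apart, and 10 to 34 without 1 library, against 28. Of the airway genes 52 rose with weights, 15 with the replicate block, 17 with the GC correction, 0 with block and GC and in the other 4 cases, and 9 to 40 without 1 library, against 32. Of the ribosomal protein and respiratory chain genes 27 rose with the replicate block, 29 with the GC correction, 3 with both, 0 in the other 4 cases and 22 to 65 without 1 library, against 59. Slopes called were 4 with pseudocount 5, 4 with the replicate block and 1 to 6 without 1 library, against 2. Genes called in hypoxia numbered 225 with no filter, 222 with no trend, 1926 with weights, 149 with the replicate block, 214 with GC, 73 with both, 205 without VIPKO normoxia 2 and 3, 140 with the term, 21 without the libraries that stood apart and 35 to 1339 without 1 library, against 350. The mitochondrial rRNA difference was 4.63 without the libraries that stood apart (exact permutation p = 0.143, the smallest that 1 against 6 can give) and 4.33 to 5.21 without 1 library.

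Over 93 named genes and 34 settings, 2543 of 3157 values kept direction and side of the threshold, 599 lost the call, 8 gained it and 7 turned: Adcy6 (0.00184 with block and GC), Rgma (0.0159 with GC, 0.00682 with block and GC), Foxj1 (0.0272 with weights, 0.30 with GC, 0.28 with block and GC) and mt-Co1 (-0.000425 without the libraries that stood apart). The causes were not tested. Genes whose signal lies near 3 reads, Vip among them, are limited by depth.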

Other observations

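Some gene lists that no comparison above describes had changes mostly of one sign, few of which passed the test; no test of a list was made. All 24 cell cycle genes had a positive change, with a median of 0.43 (0.61 with the term for the 4 libraries that stood apart). Of these 1 rose, close to the 4.69% over all genes, and none was called without VIPKO 2 or with length and GC content taken out. Of 100 immunoglobulin segments 93 had a positive change, with a median of 1.06, and 3 rose, but the median was 0.48 with that term, the median difference from the WT mean was 0.37 in VIPKO 1 and 1.28 over VIPKO 2 to 4, none was called without VIPKO 2 or with length and GC content taken out, and 7 were called at most without 1 library; their reads may be split among near-identical segments. Of 17 circadian clock genes 13 had a positive change, with a median of 0.50 (0.69 with the term), and 1 rose (none without VIPKO 2). The elastic fibre and basement membrane list had 25 of 30 negative changes, with a median of -0.18 (-0.12 with the term). Of these 1 fell, beside 3.96% of all genes that fell, and none was called with length and GC content taken out. Of the 15 genes on the skeletal muscle list 11 were tested and none was called (0 with an unadjusted p under 0.05), though their median was 0.93, or 0.80 with the term. At equal mitochondrial rRNA the median was -3.76, and the slope on mitochondrial rRNA in the hypoxia libraries was above 0 for all 11, but both values rested on WT hypoxia 5, where the summed signal of the list was 42515, against 747 to 1996 in the other hypoxia libraries: without it the median was 0.40 and 4 of 11 slopes were above 0.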
